A study of Homo sapiens with 6 samples.

Results

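Solute carriers are membrane proteins that move sugars, amino acids, ions, vitamins and other small molecules across the plasma membrane and the membranes of organelles. They are numbered by family, and the mitochondrial family SLC25 was left aside. The genes described here have a symbol made of SLC, a family number, the letter A and a member number, without antisense symbols and pseudogenes. The rule found 19 of the 14884 genes named on the array: 15 carriers, 1 regulator of a glucose carrier gene (SLC2A4RG) and 3 non-coding transcripts named after a neighbouring carrier gene (SLC2A1-DT, SLC20A1-DT and SLC9A3-OT1). RefSeq lists 303 protein-coding genes whose symbols fit the rule, and 16 of them had a probe set listed in the platform's annotation used here. The other probe sets are unnamed here and were not analysed. The name solute carriers therefore covers a small remainder of the superfamily, mostly genes that received an SLC number late and were earlier called MFSD or PQLC. The carriers were sorted by family number, except that SLC66A1 was placed singly by its substrate. On this sorting, 2 of the carriers (SLC38A12 and SLC66A1) fell in the amino acid group and 0 in the glucose, lactate, ion and zinc groups. 5 belong to families of other substrates, and 8 to families that were not sorted by substrate. SLC60A2, named below as a glucose carrier, is among the latter and was not placed singly. The well-known carrier families of glucose, lactate, ions and zinc were therefore not analysed here.

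The cells were Hs578T, a human breast cancer line of mesenchymal type. One group of 3 arrays came from cells transfected with small interfering RNA (siRNA) against CSRP2, which encodes a LIM domain protein that bundles actin (siCSRP2). The other group of 3 came from cells given a non-targeting siRNA (siControl). In both, 150000 cells were plated per well in DMEM with 10% fetal bovine serum plus insulin at 0.01 mg/ml. A lipid reagent carried the siRNA, 100000 cells per well were moved to new wells 24 h after transfection, and RNA was taken 48 h after that. The labels number the arrays 1 to 3 in each group without saying whether each had a culture of its own. The p-values therefore cover the spread among these arrays only, and that spread could be technical. Each array gave 1 log2 value per probe set, and each of the 19 genes had 1 probe set. A gene was called when its adjusted p was below 0.05 in limma's test across all 14884 genes.

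CSRP2 itself measured 3.25, 3.76 and 4.26 in siCSRP2, against 3.69, 4.01 and 4.35 in siControl, a log2 difference of -0.26 (limma, adjusted p = 0.583; 0.188 when arrays were blocked by replicate number). It was lower in siCSRP2 in 3 of 3 pairs of equal number, but the groups overlapped. Its probe set missed the threshold in both fits and gives no firm check of the labels, so siCSRP2 stands for the arrays labelled that way. The mesenchymal markers VIM, FN1, AXL and ZEB1 had group means from 4.64 to 11.1, while the 5 measured luminal and epithelial markers, ESR1 among them, lay between 2.40 and 3.83. 3 of these 4 mesenchymal markers fell in siCSRP2: VIM by 0.82 (adjusted p = 0.0149), FN1 by 0.59 (adjusted p = 0.0299) and AXL by 1.73 (adjusted p = 0.00833), each without overlap. ZEB1 differed by -0.09, and none of the luminal and epithelial markers passed. The part of this shift in the results below was not tested. The markers of immune, endothelial and fat cells, 1 measured for each, lay at or below 2.65, under the median of all gene means (2.99). One control array stood apart from its group: on the leading principal component (63.2% of variance), siControl 1 and 2 lay at 31.5 and 31.2, siControl 3 at 2.05 and the siCSRP2 arrays between -30.7 and -14.0. Where leaving out this array changed the call of a gene named here, the value without it is given beside the result. siControl 3 lay toward the siCSRP2 arrays, so leaving it out tends to widen the difference between the groups. The number of genes called went from 1093 to 2620 without it, and fell when any other array was left out. No member was called lower in the fits that left out another array. A call gained only without siControl 3 therefore adds no support.

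A pair of related carriers moved in opposite directions. SLC71A1 rose and SLC71A2 fell in siCSRP2, and these were the 2 brightest of the 19 genes. Both were formerly known as hippocampus abundant transcript genes and later as MFSD14A and MFSD14B. They encode membrane proteins of the major facilitator superfamily, whose members move small molecules by alternating between an outward-facing and an inward-facing shape, and their substrates are not established. In mice, loss of Mfsd14a is known to disturb the shaping of the sperm head.

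SLC71A1 measured 9.41, 9.68 and 9.99 in siCSRP2, against 8.66, 8.61 and 8.85 in siControl. Every siCSRP2 value was above every siControl value, and the means were 9.70 ± 0.29 in siCSRP2 and 8.71 ± 0.13 in siControl (SD, n = 3 each). The rise was 1.99-fold (log2 difference 0.99, SE 0.16, 95% interval 0.63 to 1.35; limma, adjusted p = 0.0125). With the arrays blocked by replicate number, the adjusted p was 0.00231. SLC71A1 was higher in siCSRP2 in 3 of 3 pairs of equal number. The log2 difference was 1.0 without siCSRP2 2 (adjusted p = 0.0571), 0.97 without siControl 1 (adjusted p = 0.0578) and 0.94 without siControl 2 (adjusted p = 0.0744), so the call was lost in those fits. It was 1.06 without siControl 3 (adjusted p = 0.0033).

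SLC71A2 measured 6.51, 6.24 and 6.56 in siCSRP2, against 7.13, 6.86 and 7.04 in siControl. Every siCSRP2 value was below every siControl value, and the means were 6.44 ± 0.17 in siCSRP2 and 7.01 ± 0.14 in siControl (SD, n = 3 each). The fall was 1.49-fold (log2 difference -0.58, SE 0.13, 95% interval -0.87 to -0.28; limma, adjusted p = 0.0351, and 0.0101 with the block). The direction was the same in every setting tried, but the call was not kept in all of them. It was lost after quantile normalization (-0.48, adjusted p = 0.0758), after cyclic loess (-0.48, adjusted p = 0.0818) and with limma's trend and robust options (adjusted p = 0.063). Of the fits that left out 1 array, the fit without siControl 3 alone kept the call (-0.56, adjusted p = 0.03). The others gave adjusted p = 0.0568 without siCSRP2 1, 0.12 without siCSRP2 2, 0.0749 without siCSRP2 3, 0.146 without siControl 1 and 0.0916 without siControl 2, with log2 differences from -0.65 to -0.48.

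The unequal change of both genes can be read within each array, where a shift of the whole array cancels. The value of SLC71A1 minus that of SLC71A2 was 2.90, 3.44 and 3.44 in siCSRP2, against 1.53, 1.75 and 1.81 in siControl. The groups did not overlap, and the difference between them was 1.56 on the log2 scale (means 3.26 ± 0.31 and 1.69 ± 0.14, SD, n = 3 each). The two-sided exact permutation test gave p = 0.1, the smallest that 3 against 3 can reach, and the difference was 1.62 without siControl 3. This comparison was added after the values were seen, for 2 genes that each already separated the groups, in opposite directions. The lack of overlap and the p-value of their difference were therefore fixed in advance and add no support. Whether the probes of either gene also bind RNA of the other was not tested.

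**Figure D1:**
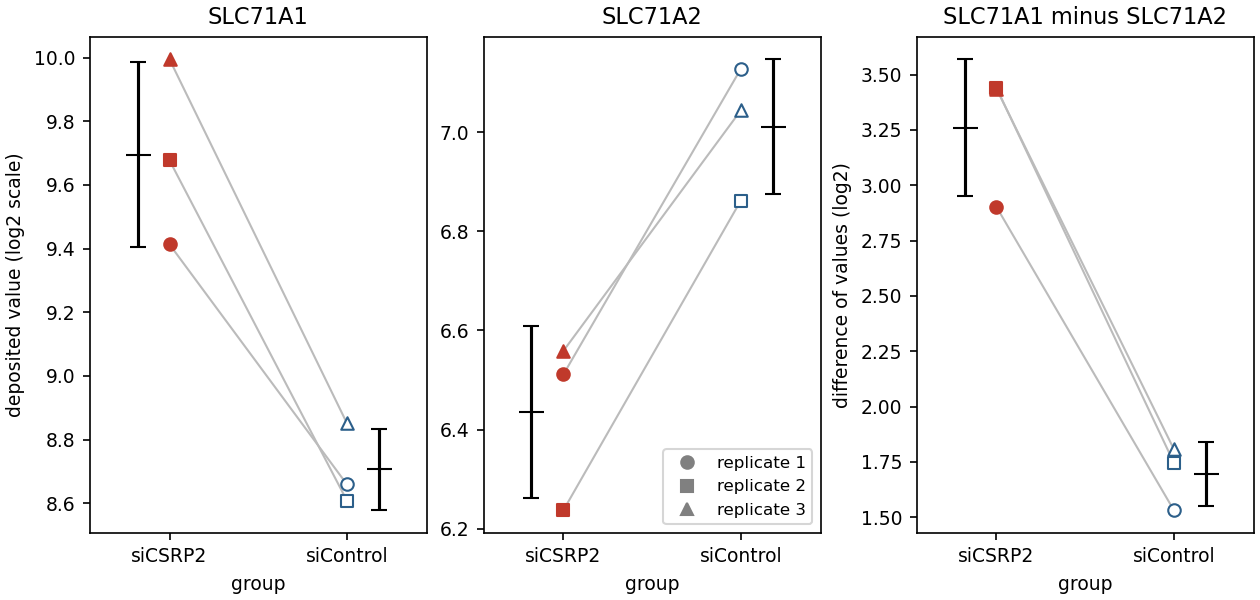
Deposited log2 values of SLC71A1 and SLC71A2 and their difference (y axes, which do not start at 0) on each array of the siCSRP2 and siControl groups (x axis). Symbols and grey lines join arrays of equal replicate number, and black bars give the mean ± SD of 3 arrays. SLC71A1 is higher (means 9.70 and 8.71) and SLC71A2 lower (means 6.44 and 7.01) in siCSRP2 in every pair.

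The promoters of these genes are shown because they are the only members called. RefSeq's table (GRCh38.p14) holds 300 bases for each, from 250 before the start to 50 after it. SLC71A1 lies at chr1:100037845-100038144, plus strand, and SLC71A2 at chr9:94374319-94374618, plus strand. Capitals mark the longest run of letters that both windows share on the same strand.
SLC71A1: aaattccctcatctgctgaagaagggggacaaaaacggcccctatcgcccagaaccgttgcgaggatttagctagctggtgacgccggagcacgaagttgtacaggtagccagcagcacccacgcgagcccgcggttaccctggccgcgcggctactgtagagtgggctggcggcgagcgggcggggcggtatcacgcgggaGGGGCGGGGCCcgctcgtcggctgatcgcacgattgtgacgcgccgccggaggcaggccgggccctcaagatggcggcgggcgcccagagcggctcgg
SLC71A2: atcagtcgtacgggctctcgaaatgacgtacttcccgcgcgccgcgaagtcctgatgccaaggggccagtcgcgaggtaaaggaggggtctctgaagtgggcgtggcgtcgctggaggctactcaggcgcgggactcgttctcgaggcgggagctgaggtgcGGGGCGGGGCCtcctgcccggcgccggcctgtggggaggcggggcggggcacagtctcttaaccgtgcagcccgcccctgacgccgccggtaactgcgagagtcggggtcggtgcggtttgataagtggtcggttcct
Both windows are rich in G and C, with 68.7% in SLC71A1 and 68.3% in SLC71A2 against a median of 58.7% over all promoters of the table, and they hold 37 and 36 CG pairs. The shared run is 11 bases, GGGGCGGGGCC, and 4.49% of all 35116 windows hold it on either strand. The core of the amino acid response element, TGATGNAA, read on both strands, was in 3.62% of all windows and in 0 of 17 windows that matched 16 of the 19 genes. The metal response element cores TGCACNC and TGCGCNC, which differ in 1 letter and cannot match the same bases on one strand, were in 12.1% and 19.97% of all windows and in 2 and 7 of the 17 windows. These 17 windows held from 58.7% (SLC60A2) to 87.0% (SLC2A4RG) G and C, none below the median over all promoters. The part of this content in the motif shares was not tested. Neither SLC71 window held any of these 3 motifs, which says only that the letters are not in this window.

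Across all 19 genes, the share called varied with the fit. In the fit on all arrays without the block, 1 gene rose and 1 fell, 10.5% of the members against 7.34% of all genes (0.800% higher and 6.54% lower). With the replicate number as a block, 1 rose and 6 fell, 36.8% of the members against 15.8% of all genes (2.67% higher and 13.1% lower). The siCSRP2 arrays lay wholly above the siControl arrays for 2 members and wholly below for 7, and over all genes the shares were 11.5% and 16.2%. The log2 difference was below 0 for 15 of the 19 members, 78.9% of them, with a median of -0.33, while 46.9% of all genes were below 0, with a median of 0.02. The level of a gene bears on these figures: in the brighter 50% of genes, the median was -0.39 over the 12 members there and -0.15 over all genes.

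**Figure D2:**
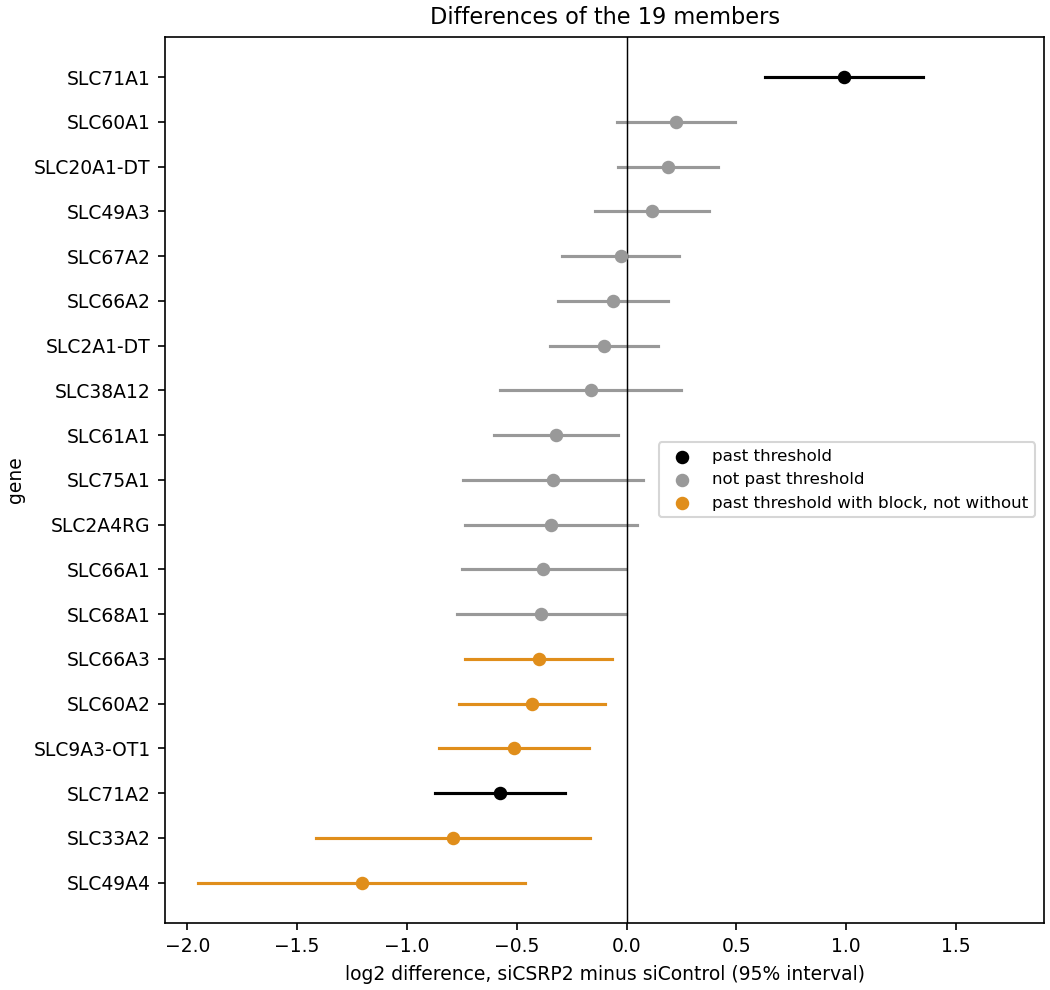
Log2 difference of each of the 19 genes, siCSRP2 minus siControl, with its 95% interval from limma (x axis). Black points passed adjusted p 0.05, orange points did so with the replicate number as a block and not without it, and grey points did so in neither of these fits. SLC71A1 stands alone on the right at 0.99, and SLC49A4 is farthest left at -1.21.

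SLC49A4 had the largest difference of all 19 genes in size, but it missed the threshold in the fit on all arrays. SLC49A4, formerly DIRC2, is a lysosomal membrane protein of the major facilitator superfamily, known from a gene broken in a family with renal cancer. It measured 4.02, 4.0 and 3.25 in siCSRP2, against 5.35, 5.34 and 4.20 in siControl. The groups did not overlap, but siControl 3 lay close to the siCSRP2 arrays and far from the other controls. The log2 difference of -1.21 (SE 0.33, 2.31-fold lower) missed the threshold (limma, adjusted p = 0.0621), and it passed with the block (adjusted p = 0.0012). Without siControl 3 the difference was -1.59, 3.01-fold, with adjusted p = 0.00184. It also passed after median centring, with either filter on dim genes, with limma's trend and robust options and with array weights, 6 of 9 settings on all arrays when the block is counted. Over all alternatives its adjusted p ran from 0.0012 to 0.23.

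SLC66A1, SLC66A2 and SLC66A3 have the PQ-loop fold, and SLC66A1 exports cationic amino acids such as arginine and lysine from lysosomes. SLC66A1 measured 3.56, 3.56 and 3.29 in siCSRP2, against 4.04, 3.99 and 3.51 in siControl, and siControl 3 lay within the siCSRP2 range. Its difference of -0.38 did not pass (adjusted p = 0.201, and 0.0562 with the block), and was -0.55 without siControl 3 (adjusted p = 0.0213). SLC66A3 measured 3.02, 2.91 and 2.63 in siCSRP2, against 3.27, 3.45 and 3.05 in siControl, without overlap. Its difference was -0.40 (adjusted p = 0.136), which passed with the block (adjusted p = 0.0475) and without siControl 3 (-0.50, adjusted p = 0.0472). SLC66A2 differed by -0.06 (95% interval -0.31 to 0.19, adjusted p = 0.769). The intervals of SLC66A1 (-0.75 to -0.01) and SLC66A3 (-0.73 to -0.07) overlap that of SLC66A2, and the difference between the 3 genes was not tested.

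Of the remaining major facilitator carriers, SLC33A2 and SLC60A2 passed with the block and not without it. SLC33A2, formerly MFSD3, belongs by number with the acetyl-CoA carrier family. It measured 3.16, 3.17 and 2.72 in siCSRP2, against 4.04, 4.25 and 3.12 in siControl, so that siControl 3 lay among the siCSRP2 arrays and the groups overlapped. Its difference was -0.79 (SE 0.27, adjusted p = 0.119, and 0.00987 with the block), and -1.13 without siControl 3 (adjusted p = 0.00216). SLC60A2, formerly MFSD4B, is known in rat kidney as a sodium-dependent glucose carrier. It measured 3.57, 3.21 and 3.25 in siCSRP2, against 3.98, 3.59 and 3.75 in siControl. The siCSRP2 values all lay below the siControl values, and here siControl 3 stood between the other controls. The difference was -0.43 (SE 0.15, adjusted p = 0.113, and 0.03 with the block). Its relative SLC60A1, formerly MFSD4A, differed by 0.23 (95% interval -0.04 to 0.49, adjusted p = 0.286).

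The other carriers did not pass in the fit on all arrays or with the block. SLC61A1, the human counterpart of an algal molybdate carrier, ran from 2.56 to 2.81 in siCSRP2 and from 2.84 to 3.12 in siControl, without overlap, with a difference of -0.32 (adjusted p = 0.156). SLC68A1 differed by -0.39 (adjusted p = 0.207), and by -0.53 without siControl 3 (adjusted p = 0.0493). The organic anion carrier SLC75A1 differed by -0.33, with 4.52, 5.19 and 4.58 in siCSRP2, against 5.02, 5.04 and 5.23 in siControl (adjusted p = 0.304). SLC38A12, placed by number with the carriers of neutral amino acids, differed by -0.16 (95% interval -0.58 to 0.25). SLC49A3 and SLC67A2 differed by 0.12 and -0.03, with intervals of -0.14 to 0.37 and -0.29 to 0.24. SLC67A2 and SLC49A3 lay below the median of all gene means, as did SLC60A1, SLC61A1 and SLC68A1, and a difference at so dim a level can understate the change. The remaining 10 carriers lay above it.

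**Figure D3:**
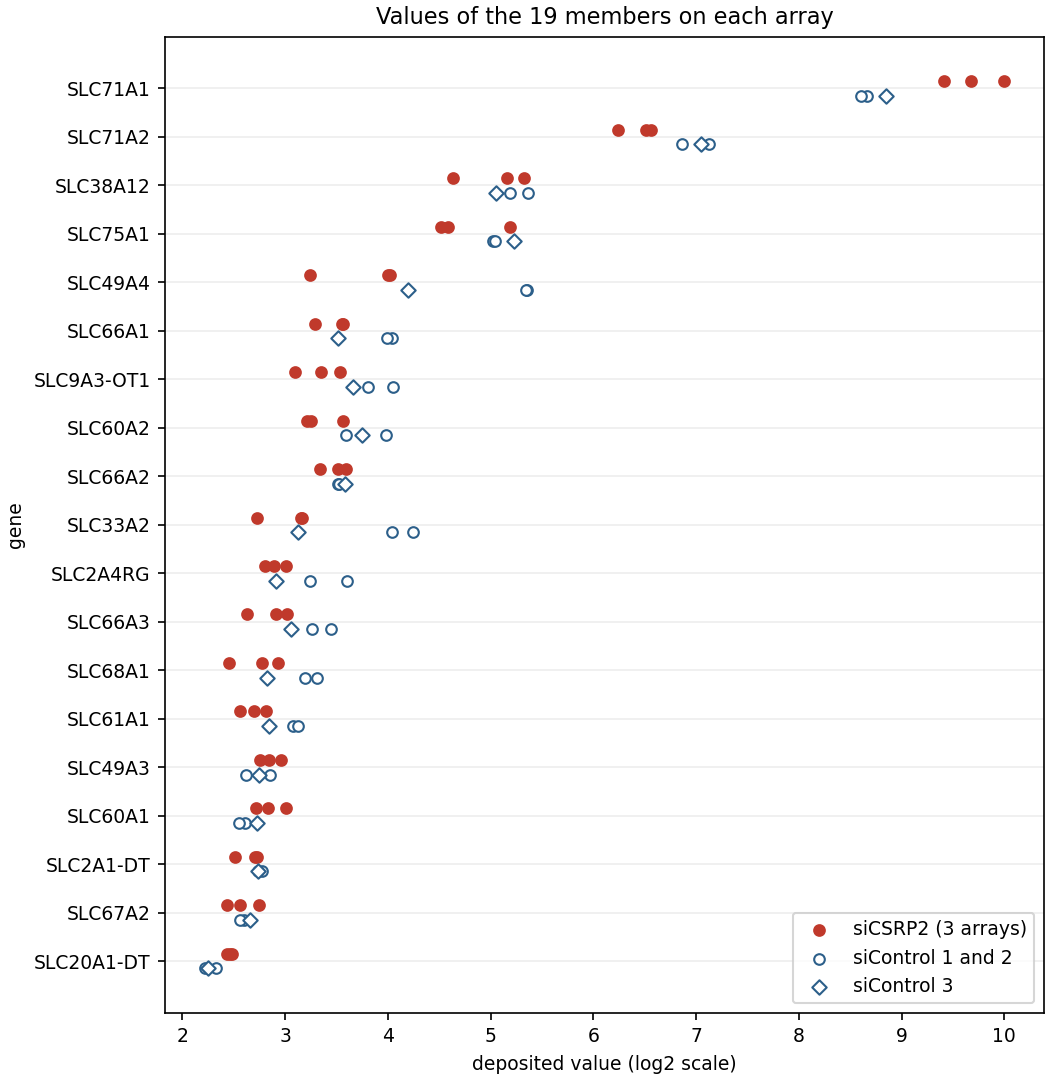
Deposited log2 value of each of the 19 genes on each array (x axis), ordered by mean value. Red points are the 3 siCSRP2 arrays, open circles siControl 1 and 2, and open diamonds siControl 3. SLC71A1 lies between 8.61 and 9.99 and every gene outside the SLC71 pair at or below 5.36, and for SLC49A4, SLC33A2 and SLC66A1 the diamond lies near the red points.

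Neither the regulator nor the 3 non-coding transcripts passed the test. SLC2A4RG encodes a DNA-binding protein that acts on the gene of the insulin-responsive glucose carrier and is no carrier itself. It measured 2.81, 2.90 and 3.01 in siCSRP2, against 3.24, 3.60 and 2.91 in siControl, and its difference of -0.34 did not pass (adjusted p = 0.267), while without siControl 3 it was -0.52 (adjusted p = 0.0381). SLC9A3-OT1, which overlaps a sodium-proton exchanger gene, measured 3.53, 3.35 and 3.10 in siCSRP2, against 4.05, 3.80 and 3.67 in siControl, without overlap. Its difference was -0.51 (SE 0.15, adjusted p = 0.0762), which passed with the block (adjusted p = 0.0149) and without siControl 3 (-0.60, adjusted p = 0.028). SLC20A1-DT differed by 0.19 (adjusted p = 0.295) and SLC2A1-DT by -0.10 (adjusted p = 0.604), each without overlap between the groups. The values of these transcripts give nothing on the carrier genes they are named after.

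SLC49A4, SLC33A2, SLC66A1, SLC66A3, SLC68A1, SLC61A1, SLC2A4RG, SLC38A12 and SLC60A1 were 9 members for which siControl 3 lay nearer the siCSRP2 mean than the mean of siControl 1 and 2, 47.4% of members against 53.2% of all genes. For SLC49A4, siControl 3 was 1.15 below the mean of siControl 1 and 2 (coded -1.15), beside -1.59 for the siCSRP2 mean. For SLC33A2 the values were -1.02 on siControl 3 and -1.13 on the siCSRP2 mean. The SLC71 genes differed in this respect: SLC71A2 was 0.05 on siControl 3 beside -0.56 on siCSRP2, and SLC71A1 was 0.22 beside 1.06. With siControl 3 left out, 1 member rose and 8 fell, 47.4% of members against 17.6% of all genes. What sets siControl 3 apart was not tested.

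**Figure D4:**
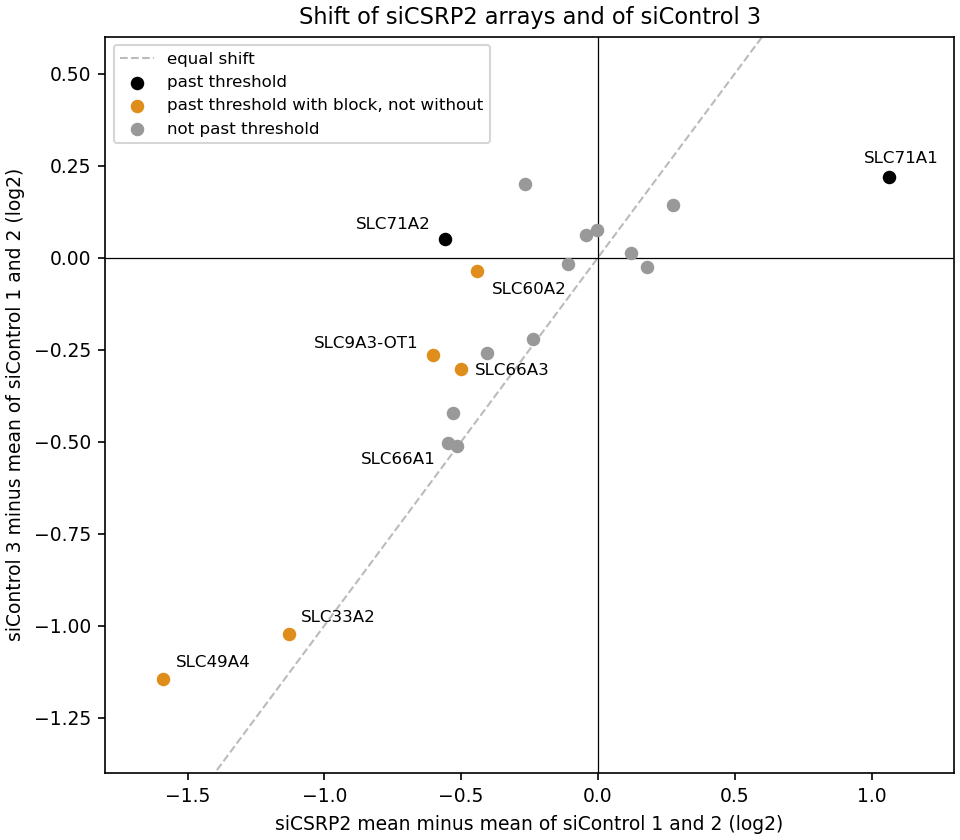
Shift of the siCSRP2 mean (x axis) and of siControl 3 (y axis), both as log2 differences from the mean of siControl 1 and 2, which the axes share. Each point is 1 gene, and the dashed line marks equal shifts. SLC49A4 (-1.59 and -1.15) and SLC33A2 (-1.13 and -1.02) lie near the line, and SLC71A1 (1.06 and 0.22) and SLC71A2 (-0.56 and 0.05) lie away from it.

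Among 17 measured accessory proteins and regulators of carriers, 1 fell and none rose, where 6.54% of all genes were lower and 0.800% higher. With the block 3 fell, where 13.1% of all genes were lower. The median difference was -0.05, against 0.02 over all genes. Of the 17, 14 lay above the median of all gene means. When the dimmest 50% of genes were left out, 17.3% of the rest were called without the block. The gene that fell was EMB, which encodes embigin, a membrane glycoprotein that carries certain monocarboxylate carriers to the cell surface. EMB measured 3.51, 3.01 and 3.10 in siCSRP2, against 4.80, 4.53 and 4.19 in siControl, without overlap, a 2.46-fold fall (log2 difference -1.30, SE 0.19, limma, adjusted p = 0.00926). It was called in 4 of the 6 fits that left out 1 array, and missed the threshold without siCSRP2 2 (-1.20, adjusted p = 0.05) and without siControl 2 (-1.29, adjusted p = 0.059). Basigin, BSG, the other such escort protein, differed by -0.11 (adjusted p = 0.615). TXNIP, which promotes the removal of glucose carriers from the surface, differed by -0.49 (adjusted p = 0.0526), and ARL6IP5, known in rat to restrain a glutamate carrier, by -0.48 (adjusted p = 0.111). Both passed with the block (adjusted p = 0.0227 for TXNIP and 0.0236 for ARL6IP5). Without siControl 3, ARL6IP5 passed as well (-0.60, adjusted p = 0.0283). The kinase gene OXSR1 differed by 0.26 with all arrays (adjusted p = 0.55) and by 0.56 without siControl 3 (adjusted p = 0.0142). OXSR1 measured 6.98, 6.93 and 7.10 in siCSRP2, against 6.52, 6.36 and 7.36 in siControl, so siControl 3 lay above every siCSRP2 array.

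Of 23 measured genes of the amino acid response, which starved cells switch on through the factor ATF4, 2 rose and 3 fell, where 0.800% of all genes were higher and 6.54% lower. With the block 4 rose and 3 fell, where 2.67% of all genes were higher and 13.1% lower, and the median difference was -0.10. All 23 lay above the median of all gene means. When the dimmest 50% of genes were left out, 17.3% of the rest were called in either direction without the block. The shares over all genes are therefore not those of genes at a like level. Asparagine synthetase, ASNS, rose by 0.78 (adjusted p = 0.026) and the hormone FGF21 by 1.48 (adjusted p = 0.0263). The pseudokinase TRIB3 fell by 0.58 (adjusted p = 0.0249), the serine synthesis enzyme PSPH fell by 0.87 (adjusted p = 0.038) and the glycoprotein STC2 fell by 0.48 (adjusted p = 0.0315). ATF3 differed by 0.73 (adjusted p = 0.159) and passed with the block (adjusted p = 0.0337) and without siControl 3 (1.11, adjusted p = 0.00142). CTH differed by 0.47 (adjusted p = 0.278) and passed with the block (adjusted p = 0.0392) and without siControl 3 (0.72, adjusted p = 0.0236). Each of the 5 genes called kept its call without siCSRP2 1 and without siControl 3. Each lost it without siCSRP2 2, siCSRP2 3, siControl 1 or siControl 2, with adjusted p between 0.0776 and 0.162 and the same direction.

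Of 21 listed genes of zinc and metal handling 14 were measured, and none of these passed, where 7.34% of all genes did. Of these 14, 8 lay at or below the median of all gene means, where a difference can understate the change. With the block 1 passed, the metallothionein MT1X (-1.02, adjusted p = 0.0209), where 15.8% of all genes did. Of 8 enzymes of glucose phosphorylation and lactate formation, LDHB fell (-0.66, adjusted p = 0.0486) and none rose, beside 6.54% lower and 0.800% higher over all genes. Of the fits that left out 1 array, only the one without siControl 3 called LDHB (-0.85, adjusted p = 0.00298), and the other 5 gave adjusted p from 0.059 to 0.195. LDHA was lower with the block (-0.41, adjusted p = 0.0377). HK2, a hexokinase gene, measured 6.53, 7.03 and 6.68 in siCSRP2, against 5.19, 6.04 and 7.38 in siControl. Its value on siControl 3 was thus above every siCSRP2 value. The HK2 difference was 0.54 with all arrays (adjusted p = 0.515) and 1.13 without siControl 3 (adjusted p = 0.0118). Of 12 listed sodium pump subunits only FXYD1, FXYD3, FXYD5 and FXYD6 were measured, and no ATP1A or ATP1B gene was. None of these 4 passed with or without the block, where 15.8% and 7.34% of all genes did. Of these 4, 2 lay at or below the median of all gene means.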

How the data were processed

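The authors deposited 1 log2 value per probe set and array from Affymetrix HuGene 2.0 arrays, for 53617 probe sets. The log2 scale was judged from the values. Per the submitters' processing notes Partek was used, without a stated version or role. The sources used here do not give background correction, normalization or build. Quartiles varied from array to array, so the deposited values are not quantile normalized to 1 distribution. This variation went partly with the groups. The array medians were 2.82, 2.80 and 2.82 in siCSRP2, against 2.72, 2.70 and 2.76 in siControl. The SDs of the array values were 1.29, 1.32 and 1.30 in siCSRP2, against 1.36, 1.38 and 1.35 in siControl. The part of this difference in the results was not tested beyond the other scalings reported. The platform's annotation gave 1 gene symbol to 16098 probe sets, several to 0 and none to 37519. Each gene was represented by its brightest probe set over the 6 arrays. All columns were matched to samples.

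The siCSRP2 and siControl arrays were compared in R 4.3.3 with limma 3.58.1 (lmFit, eBayes, no term but the group) over all 14884 genes. The tests were two-sided, with Benjamini-Hochberg adjustment. The fit was also run on simulated data with changes of 2 on the log2 scale and equal spread for all genes. No member differed by as much, so that run does not bear on changes of the sizes reported here. The alternatives were the replicate number as a block, 3 scalings, 2 filters on dim genes, the mean of probe sets, limma's trend and robust options, array weights, and each array left out. No label ties a replicate number to a plate or day. Each array's deviation from its group mean was correlated across genes, giving 0.30, 0.19 and 0.32 between arrays of equal number and -0.26 to 0.05 otherwise. Every pair of equal number lay above 0.1, so the numbers may pair the arrays, which rests on the data alone. The deviations cancel within each group, so high values at equal numbers push the others down. The values at unequal numbers are therefore no independent contrast. The calls reported come from the fit without the block, and the blocked values stand beside them.

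The named genes are all 19 members and, from 5 other gene lists, those past the threshold with or without the block, with BSG added. HK2, OXSR1 and the 11 MFSD and SLC genes outside the rule were named after their values were seen. The members, lists and classes were chosen with earlier results of these data known. The paralogue comparison, the superfamily groups and the shared promoter run were chosen after the values were seen. No detection calls were used, and the number of arrays limits the precision.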

Additional observations from a re-analysis of the deposited data

How the results depend on the processing

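The count of the 19 members past the threshold, 1 higher and 1 lower as reported, varied with the setting. It includes the regulator and the non-coding transcripts, and with the replicate block 5 carriers were lower. The lower count was 6 with the replicate block, 8 with array weights and 3 after median centring. It was 2 when the dimmest 25% or 50% were dropped, 0 after quantile normalization and 0 after cyclic loess. In either direction, 36.8% of members and 15.8% of all genes were called with the block, and 47.4% and 19.6% with array weights. These shares were 21.1% and 10.5% after median centring. They were 16.7% and 10.8% without the dimmest 25%, and 25% and 17.3% without the dimmest 50%. After quantile normalization they were 5.26% and 5.89%, and after cyclic loess 5.26% and 5.94%. With 1 array left out, the lower count ran from 0 to 8 and the higher count from 0 to 1. Both were 0 without siCSRP2 2, siControl 1 or siControl 2. Over all genes, 1093 were called as reported, 2348 with the replicate block, 2924 with array weights, and 91 to 2620 with 1 array left out (194 and 285 when siCSRP2 2 or 3 was dropped, 157, 91 and 2620 when siControl 1, 2 or 3 was). SLC71A1 passed in all 9 other settings, SLC71A2 in 6 of them and SLC49A4, which missed the threshold as reported, also in 6. With limma's trend and robust options SLC49A4 was the 1 lower gene called. The sign turned for 3 genes that were never called: SLC38A12 (-0.31 to 0.038 with 1 array left out, positive without siCSRP2 1), SLC66A2 (-0.12 to 0.0079, positive without siCSRP2 3) and SLC67A2 (-0.11 to 0.045, positive without siCSRP2 3). The cause of these shifts was not tested. 5 of the carriers lie below the median level of all genes, where no background value marks a limit.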

Other observations

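11 further transporter genes carry MFSD symbols or SLC symbols outside the rule, and they were grouped by symbol after the files were read. 1 rose, 1 fell and 9 did not pass (limma, all 14884 genes), where 0.800% of all genes were higher and 6.54% lower. The log2 difference was below 0 for 6 and above 0 for 5, with a median of -0.35 against 0.02 over all genes. MFSD2A, a carrier that takes omega-3 lysolipids into the brain and eye, measured 3.16, 3.50 and 3.62 on siCSRP2 arrays and 2.79, 2.78 and 2.87 on siControl arrays. It rose 1.53-fold (log2 difference 0.61, SE 0.14, adjusted p = 0.0334, and 0.0128 with the replicate block), without overlap between the groups. Of the fits that left out 1 array, MFSD2A was called without siCSRP2 1 (0.75, adjusted p = 0.0189) and without siControl 3 (0.64, adjusted p = 0.0192), and the other 4 gave adjusted p from 0.111 to 0.14. SLC35D4, formerly TMEM241, measured 3.41, 3.17 and 3.30 on siCSRP2 arrays and 3.89, 3.86 and 3.64 on siControl arrays. It fell by 0.50 on the log2 scale (adjusted p = 0.0435) and was called only without siControl 3 among the fits that left out 1 array (-0.58, adjusted p = 0.0129, against 0.0528 to 0.175 in the other 5). MFSD8, the lysosomal protein CLN7 that is mutated in a childhood neurodegeneration, and SLC9D1, formerly TMCO3, differed by -0.49 and -0.50 (adjusted p = 0.109 and 0.0808). Both passed with the block (adjusted p = 0.0235 and 0.016) and without siControl 3 (-0.66 and -0.63, adjusted p = 0.0103 and 0.0143). MFSD11, MFSD6 and SLC35F6 differed by -0.35, -0.37 and -0.44 and passed neither with nor without the block. Without siControl 3 these 3 passed, with -0.65, -0.58 and -0.68 (adjusted p = 0.0347, 0.0225 and 0.00618), where 17.6% of all genes did. MFSD1 differed by 0.29, SLC51B by 0.12, SLC51A by 0.11 and MFSD6L by 0.01, and none of these 4 passed with the block, without it or without siControl 3.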
